A study of Rattus norvegicus with 13 samples.

Results

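The genes described here are 7 cytokines and antagonists of the interleukin-6, interleukin-10 and interleukin-1 families, namely Il6, Il24, Il33, Il1a, Il1b, Il18 and Il1rn. They were taken by gene symbol from the array's annotation. Where a gene had several probe sets, the brightest on average over the 13 arrays stood for it. All 7 were measured, by 9 probe sets, among 14217 genes in all. The genes were chosen by name, with earlier results of these data known. The choice between probe sets went by the mean level over all arrays, not by any difference between groups.

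The study set tumours of a rat model of intrahepatic cholangiocarcinoma, a cancer of the bile duct epithelium within the liver, beside cells derived from such tumours. The animals and cells had a Fischer 344 background, and every group traces back to BDEsp cells. There were 4 tumours (from young adult male rats, frozen at removal), 1 array labelled as epithelial cells in co-culture with fibroblastic cells, and 1 array labelled as fibroblastic cells in co-culture with epithelial cells. The epithelial line grown alone (clone H10) had 3 arrays, and the fibroblastic line grown alone (clone E4, described as alpha-smooth-muscle-actin-positive cancer-associated fibroblasts) had 4 arrays. Each line is 1 clone, and the cells were grown in collagen gels. The labels do not say whether the arrays of a line came from separate cultures, so p-values measure the spread between arrays, which may be technical.

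Interleukin-6 signals through its receptor Il6r and the shared subunit gp130 (Il6st) to JAK kinases and STAT3, and it is known in bile duct cells as a growth and survival factor. Interleukin-1 alpha, interleukin-1 beta, interleukin-18 and interleukin-33 share a fold and signal through receptors that recruit MyD88 and activate NF-kappaB. Interleukin-1 beta and interleukin-18 are made as precursors that caspase-1 cleaves, whereas interleukin-33 and interleukin-1 alpha are held in the nucleus or cytoplasm of epithelial cells and released on damage. The product of Il1rn is the natural antagonist of the interleukin-1 receptor. Interleukin-24 belongs to the interleukin-10 family and signals through receptors that contain Il20rb.

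Values are log2 expression as deposited by the authors, and they ran between 2.94 and 14.69 over all probe sets. The lower quartile of all genes lay between 5.20 and 5.83 on the 13 arrays, which gives a scale for the low values that follow. No detection calls were used, so it cannot be told whether values at or under that level were above background. Differences from a group near or under that level are given on the log2 scale, with no fold, since the true ratio is not known there. Levels of different genes come from different probes and are not set against each other. A difference was called where the adjusted p of the limma test, corrected over all 14217 genes, was under 0.05.

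Both co-culture arrays carried the markers of both lines. Summed over 8 epithelial markers (log2 of the summed linear levels), the 4 tumours ran between 15.2 and 15.8, the epithelial and the fibroblastic co-culture arrays both had 15.5, the epithelial line ran between 15.9 and 16.2, and the fibroblastic line ran between 7.73 and 9.46. For 10 fibroblastic markers the tumours ran between 15.1 and 15.5, the epithelial co-culture array had 15.3, the fibroblastic co-culture array had 15.4, the epithelial line ran between 9.34 and 9.70, and the fibroblastic line ran between 16.3 and 16.7. The 2 co-culture arrays correlated at 0.983 with each other over all genes, and at 0.860 to 0.902 with the arrays of the lines. They are therefore named by their labels below, and results are given for each and for their mean. The tumours held markers of further cells, with Alb, a hepatocyte gene, at 14.51, 7.50, 13.94 and 14.46 in tumours 1 to 4, against 4.78 to 5.11 on epithelial arrays and 4.87 to 5.35 on fibroblastic arrays. Fibroblastic arrays 1 and 3 stood apart from arrays 2 and 4 over all genes. Correlations were 0.987 between 1 and 3, 0.990 between 2 and 4, and 0.947 to 0.961 across these pairs. The log2 ratio of 3′ to 5′ actin signal, a measure of RNA integrity, was 1.72 and 1.05 on arrays 1 and 3. It was 2.65 and 2.01 on arrays 2 and 4, and its part in this split was not tested. In bulk samples, fewer cells of a type and less RNA per cell cannot be told apart.

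The sequences around the annotated starts of Il6, Il33, Il24 and Il1a are given below, since these genes had the largest differences between the 2 lines among the members. Each window runs from 250 bases before to 50 bases after a start, 5′ to 3′ on the gene's strand, from RefSeq annotation of the rat assembly GRCr8. The table held windows for all 7 members, and for Il33 it held 2. Capitals mark matches, on either strand, to 5 motifs: the core of the NF-kappaB motif as GGGANNTTC, the cAMP response element as TGACGTCA, AP-1 as TGANTCA, C/EBP as TTGNGCAA and STAT as TTCNNNGAA. Among 33469 rat windows of the same length, 4.05% held the NF-kappaB letters, 1.83% the cAMP response element, 7.33% the AP-1 motif, 2.61% the C/EBP motif and 8.87% the STAT motif.
Il6, chr4:5894526-5894825, minus strand: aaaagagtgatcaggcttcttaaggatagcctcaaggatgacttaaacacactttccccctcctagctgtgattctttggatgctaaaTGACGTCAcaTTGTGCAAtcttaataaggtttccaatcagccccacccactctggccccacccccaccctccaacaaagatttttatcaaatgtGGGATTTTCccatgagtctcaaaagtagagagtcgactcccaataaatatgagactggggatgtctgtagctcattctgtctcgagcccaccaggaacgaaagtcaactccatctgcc
Il33, first start, chr1:237115323-237115622, plus strand: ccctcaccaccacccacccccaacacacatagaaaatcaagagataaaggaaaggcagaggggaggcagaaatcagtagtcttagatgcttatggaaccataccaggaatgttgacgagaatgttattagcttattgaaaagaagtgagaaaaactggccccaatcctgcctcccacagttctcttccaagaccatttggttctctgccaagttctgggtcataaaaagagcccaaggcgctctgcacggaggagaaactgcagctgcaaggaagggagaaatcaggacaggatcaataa
Il33, second start, chr1:237134696-237134995, plus strand: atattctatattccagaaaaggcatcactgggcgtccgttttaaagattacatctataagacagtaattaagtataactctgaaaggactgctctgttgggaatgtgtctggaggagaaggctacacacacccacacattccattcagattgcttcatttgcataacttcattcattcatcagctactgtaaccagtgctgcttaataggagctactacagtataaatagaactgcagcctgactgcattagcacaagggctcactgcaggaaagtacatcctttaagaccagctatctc
Il24, chr13:44910711-44911010, minus strand: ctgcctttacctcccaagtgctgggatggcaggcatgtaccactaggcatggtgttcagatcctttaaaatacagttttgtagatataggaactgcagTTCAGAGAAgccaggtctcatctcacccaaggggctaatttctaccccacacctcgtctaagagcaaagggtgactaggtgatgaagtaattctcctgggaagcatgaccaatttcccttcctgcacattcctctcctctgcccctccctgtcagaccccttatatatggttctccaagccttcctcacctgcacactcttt
Il1a, chr3:136989968-136990267, minus strand: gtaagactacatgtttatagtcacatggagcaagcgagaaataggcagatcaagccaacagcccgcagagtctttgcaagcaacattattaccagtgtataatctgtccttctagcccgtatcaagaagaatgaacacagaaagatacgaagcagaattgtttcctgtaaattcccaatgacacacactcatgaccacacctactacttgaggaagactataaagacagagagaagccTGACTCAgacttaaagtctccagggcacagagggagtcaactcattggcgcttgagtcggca
The Il6 window held an NF-kappaB match (GGGATTTTC) at positions -68 to -60 from the start, a cAMP response element (TGACGTCA) at -162 to -155 and a C/EBP match (TTGTGCAA) at -152 to -145. The Il24 window held a STAT match (TTCAGAGAA) at -152 to -144, and the Il1a window held an AP-1 match (TGACTCA) at -12 to -6. Neither Il33 window held any of these letters, and no matches overlapped. A match describes the letters and does not show that a factor binds there.

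**Figure D1:**
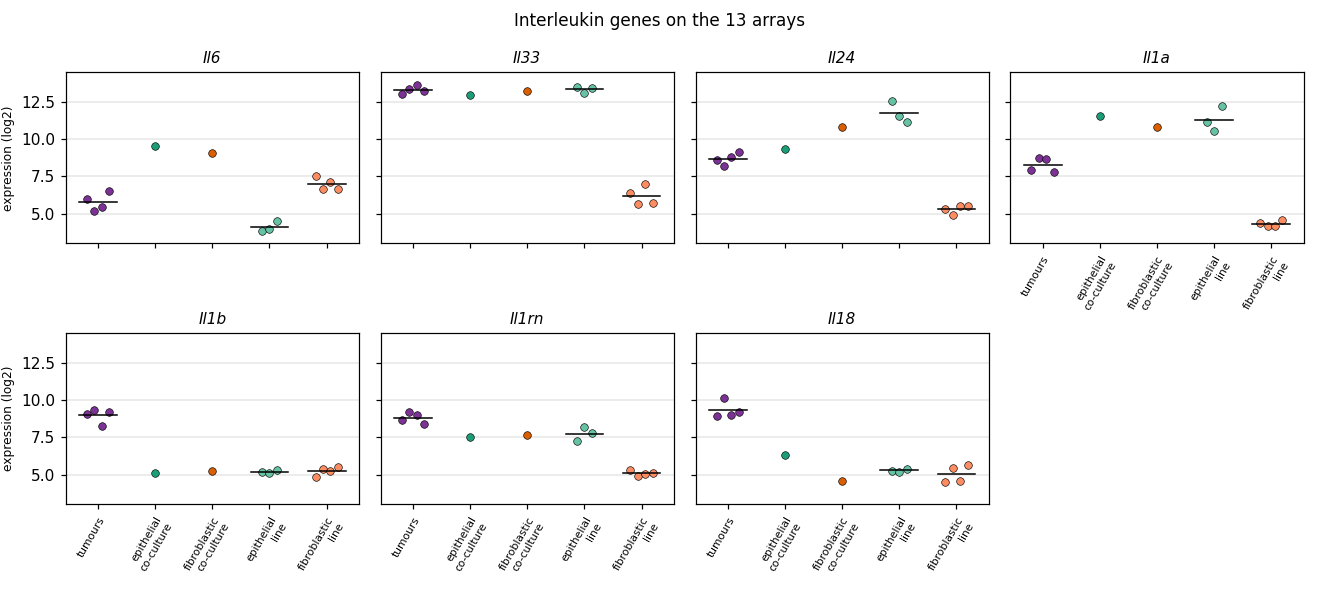
Expression of the 7 members (log2, vertical axis) on each of the 13 arrays, with 1 point per array and a line at the mean of each replicated group. Il6 was highest on the 2 co-culture arrays, Il33, Il24 and Il1a were low in the fibroblastic line alone, and Il1b and Il18 were high in the 4 tumours.

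Il6 was higher on both co-culture arrays than on any array of either line grown alone, and its level in tumours lay between those of the lines. Tumours 1 to 4 had 5.97, 5.21, 5.48 and 6.55, the epithelial co-culture array 9.57, the fibroblastic co-culture array 9.05, epithelial arrays 1 to 3 had 3.83, 4.0 and 4.49, and fibroblastic arrays 1 to 4 had 7.52, 6.68, 7.14 and 6.66. No array of one replicated group overlapped with another, although tumour 4 came close to the lowest fibroblastic arrays. Il6 in the epithelial line was under the lower quartile of all genes on every array.

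In the epithelial co-culture Il6 was above the epithelial line by 5.46 ± 0.40 SE on the log2 scale (limma adjusted p = 0.000114). The fibroblastic co-culture array was 4.15-fold above the fibroblastic line (2.05 ± 0.38 SE, limma adjusted p = 0.0149). The mean of both co-culture arrays was above the epithelial line by 5.21 ± 0.31 SE and above the fibroblastic line by 2.31 ± 0.30 SE (limma adjusted p = 2.24e-05 and 0.00148). Il6 was the only member called higher against both lines in that mean, a pattern found for 239 genes or 1.68% of all. These tests take a lone co-culture array to vary like the replicated lines.

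Tumour Il6 was higher than in the epithelial line by 1.70 ± 0.33 SE (limma adjusted p = 0.00166) and lower than in the fibroblastic line, with a difference of -1.19 ± 0.30 SE (limma adjusted p = 0.00590). The second call ended without fibroblastic arrays 1 and 3, when the difference was -0.87 with an adjusted p of 0.0584. The fibroblastic markers moved alongside, with a median difference of -1.41 between tumours and the fibroblastic line. Of these markers 7 of 10 were lower and 2 higher, where 33.5% of all genes were lower and 27.3% higher. Their part in the Il6 difference was not tested. Epithelial cells alone had less Il6 than fibroblastic cells alone, by -2.89 ± 0.26 SE (limma adjusted p = 7.68e-05).

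Il24 was highest in the epithelial line, lower in the co-cultures and tumours and lowest in the fibroblastic line. It had 8.59, 8.23, 8.77 and 9.16 in tumours 1 to 4, 9.35 on the epithelial and 10.79 on the fibroblastic co-culture array, 12.55, 11.58 and 11.13 in the epithelial line, and 5.30, 4.88, 5.54 and 5.55 in the fibroblastic line. All 4 tumours fell between the lines, and so did both co-culture arrays, the array labelled fibroblastic being the higher of the pair. Tumours were 8.35-fold below the epithelial line (-3.06 ± 0.33 SE, limma adjusted p = 4.89e-05) and above the fibroblastic line by 3.37 ± 0.30 SE (limma adjusted p = 5.63e-06).

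Between the lines Il24 was higher in epithelial cells by 6.44 ± 0.34 SE (limma adjusted p = 3.22e-06). On the epithelial co-culture array it was lower than in the epithelial line by -2.40 ± 0.51 SE (limma adjusted p = 0.0288). That call ended when only the compared groups were fitted (adjusted p = 0.0766) and without epithelial array 2 (adjusted p = 0.0559). The fibroblastic co-culture array was above the fibroblastic line by 5.47 ± 0.49 SE (limma adjusted p = 0.000520).

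Il33, an alarmin of epithelial and endothelial nuclei, was high in the tumours, the epithelial line and both co-culture arrays and low in the fibroblastic line alone. Its values were 13.03, 13.34, 13.61 and 13.24 in the tumours, 12.99 on the epithelial and 13.26 on the fibroblastic co-culture array, 13.52, 13.09 and 13.44 in the epithelial line, and 6.40, 5.65, 7.0 and 5.73 in the fibroblastic line. The range of the epithelial line lay within that of the tumours, and both were far above every fibroblastic array. The second Il33 probe set gave 12.58 to 13.07 in tumours, 11.91 and 12.17 on the epithelial and fibroblastic co-culture arrays, 12.62 to 13.22 on epithelial arrays and 4.40 to 6.26 on fibroblastic arrays.

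Tumour Il33 was above the fibroblastic line by 7.11 ± 0.28 SE (limma adjusted p = 1.57e-08). Against the epithelial line the difference was -0.05 with a 95% interval of -0.71 to 0.61 (limma adjusted p = 0.904), so a change of either sign within that interval was not resolved. The epithelial line exceeded the fibroblastic line by 7.16 ± 0.33 SE (limma adjusted p = 1.71e-06). On the fibroblastic co-culture array Il33 was above the fibroblastic line by 7.07 ± 0.49 SE (limma adjusted p = 0.000151). The 7 called epithelial markers of 8 moved with it, with a list median of 7.48, where 4.78% of all genes were higher. Within the fibroblastic line, arrays 1 and 3 (6.40 and 7.0) were above arrays 2 and 4 (5.65 and 5.73).

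Il1a, the interleukin-1 form that epithelial cells keep in the cell, was high in the epithelial line and on both co-culture arrays and intermediate in tumours. It had 7.94, 8.72, 8.64 and 7.81 in tumours 1 to 4, 11.57 on the epithelial and 10.83 on the fibroblastic co-culture array, 11.15, 10.53 and 12.24 in the epithelial line, and 4.35, 4.18, 4.19 and 4.55 in the fibroblastic line. The 3 replicated groups did not overlap, and both co-culture arrays lay within the range of the epithelial line. Fibroblastic values were all under the lower quartile of all genes.

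Tumours were 8.16-fold below the epithelial line for Il1a (-3.03 ± 0.36 SE, limma adjusted p = 0.000101) and above the fibroblastic line by 3.96 ± 0.34 SE (limma adjusted p = 3.71e-06). The epithelial line was above the fibroblastic line by 6.99 ± 0.36 SE (limma adjusted p = 3.12e-06). The second probe set kept the order, with 7.23 to 8.05 in tumours, 10.38 and 9.81 on the epithelial and fibroblastic co-culture arrays, 8.58 to 11.21 on epithelial arrays and 3.93 to 4.53 on fibroblastic arrays. The epithelial markers moved in the same direction between tumours and the epithelial line by a median of -0.71. The difference was -3.06 for Il24 and -3.03 for Il1a. Of the epithelial markers 4 of 8 were lower, where 33.2% of all genes were lower. Their part in the Il24 and Il1a differences was not tested.

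Il1b, the secreted interleukin-1 typical of activated macrophages, was high in tumours alone. It had 9.04, 9.33, 8.29 and 9.23 in tumours 1 to 4, 5.13 on the epithelial and 5.25 on the fibroblastic co-culture array, 5.21, 5.09 and 5.31 in the epithelial line, and 4.82, 5.39, 5.27 and 5.48 in the fibroblastic line. Every culture array was near or under the lower quartile of all genes, and every tumour was above every culture array. Tumours were above the epithelial line by 3.77 ± 0.25 SE (limma adjusted p = 1.59e-06) and above the fibroblastic line by 3.73 ± 0.23 SE (limma adjusted p = 3.62e-07). The lines differed by -0.04 with a 95% interval of -0.47 to 0.39 (limma adjusted p = 0.895).

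Il18, an interleukin-1 relative that drives interferon-gamma production in lymphocytes, was also highest in tumours. Its values were 8.96, 10.12, 8.97 and 9.23 in tumours 1 to 4, 6.28 on the epithelial and 4.54 on the fibroblastic co-culture array, 5.24, 5.20 and 5.39 in the epithelial line, and 4.50, 5.46, 4.60 and 5.62 in the fibroblastic line. Tumour 2, which had the least Alb, had the most Il18, and no tumour overlapped a culture. Tumours exceeded the epithelial line by 4.04 ± 0.34 SE (limma adjusted p = 8.64e-06) and the fibroblastic line by 4.28 ± 0.31 SE (limma adjusted p = 1.24e-06).

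The Il18 value of the epithelial co-culture array was above all arrays of both lines, but the difference of 1.01 from the epithelial line was not called (95% interval -0.04 to 2.05, limma adjusted p = 0.239). It was called without fibroblastic arrays 1 and 3 or 2 and 4, with adjusted p of 0.0333 and 0.0341. Between the lines, the difference of 0.24 was not called (limma adjusted p = 0.577). Without fibroblastic arrays 2 and 4 it was 0.73 with an adjusted p of 0.0169, and without arrays 1 and 3 it was -0.26. These array pairs were chosen after seeing the data. Every Il18 value of both lines and of the fibroblastic co-culture array was near or under the lower quartile of all genes.

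Il1rn, which encodes the interleukin-1 receptor antagonist, was highest in tumours, intermediate in the epithelial line and co-cultures and low in the fibroblastic line. It had 8.63, 9.18, 8.99 and 8.42 in tumours 1 to 4, 7.49 on the epithelial and 7.63 on the fibroblastic co-culture array, 7.26, 8.23 and 7.77 in the epithelial line, and 5.34, 4.91, 5.06 and 5.11 in the fibroblastic line. The replicated groups did not overlap, with the narrowest gap between tumour 4 and epithelial array 2. Tumours were 2.08-fold above the epithelial line (1.06 ± 0.24 SE, limma adjusted p = 0.00444) and above the fibroblastic line by 3.70 ± 0.22 SE (limma adjusted p = 3.45e-07). The epithelial line was above the fibroblastic line by 2.65 ± 0.23 SE (limma adjusted p = 6.83e-05).

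Il1b, Il18 and Il1rn were thus the 3 members called higher in tumours than in both lines, a pattern that 12.0% of all genes had. Macrophage markers moved with them: 12 of 12 were called higher in tumours against each line, and their summed level was 13.9 to 14.4 in tumours, 11.7 on the epithelial and 10.9 on the fibroblastic co-culture array, 9.46 to 11.5 on epithelial arrays and 9.23 to 9.65 on fibroblastic arrays. Cd14 led the sums of the cultures, at 11.49 and 10.58 on the epithelial and fibroblastic co-culture arrays and 8.57 to 11.34 on epithelial arrays, whereas C1qa, a complement gene of macrophages, had 11.70 to 12.08 in tumours and 4.67 to 5.76 on all culture arrays. Ptprc, the pan-leukocyte marker CD45, had 7.30, 7.42, 6.93 and 7.31 in the tumours, 4.40 and 4.50 on the epithelial and fibroblastic co-culture arrays, 4.28 to 4.59 on epithelial arrays and 4.37 to 4.53 on fibroblastic arrays. Cd68 had 10.17 to 10.76 in tumours, 6.74 and 6.67 on those co-culture arrays, 5.86 to 6.11 on epithelial arrays and 4.85 to 5.76 on fibroblastic arrays. The part of such cells in these differences was not tested. The ratio of 3′ to 5′ actin signal, a measure of RNA integrity, also differed, at 0.606 to 0.752 (log2) in tumours. It was 0.962 and 0.848 on the epithelial and fibroblastic co-culture arrays, 0.857 to 1.47 on epithelial arrays and 1.05 to 2.65 on fibroblastic arrays. For Gapdh this ratio was -0.084 to -0.0046 in tumours and -0.14 to -0.096 on epithelial arrays, the opposite order. It was -0.079 and -0.099 on those co-culture arrays and -0.0375 to 0.27 on fibroblastic arrays. The part of RNA integrity was not tested.

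**Figure D2:**
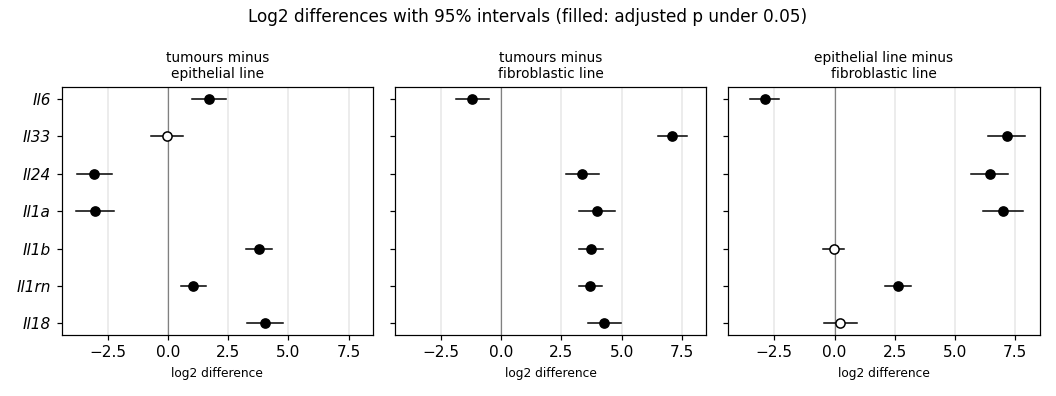
Log2 differences of the 7 members (vertical axis, 1 row per gene) with 95% intervals, for tumours against the epithelial line, tumours against the fibroblastic line and the epithelial against the fibroblastic line. Filled points had an adjusted p under 0.05. Il33 in tumours against the epithelial line, and Il1b and Il18 between the lines, were the 3 open points.

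Over the 7 members, tumours differed from the epithelial line for 6 (4 higher, 2 lower), where 52.1% of all genes were called, 18.9% higher and 33.2% lower. They differed from the fibroblastic line for all 7 (6 higher, 1 lower), where 60.9% of all genes were called, 27.3% higher and 33.5% lower. The lines differed from each other for 5 (4 higher in epithelial cells, 1 lower), where 37.4% of all genes were called, 20.9% higher and 16.6% lower. The median difference of all genes was -0.17 for tumours against the epithelial line, -0.07 against the fibroblastic line and 0.11 between the lines, and centring each array on its median shifted the split of calls. Tumours against the epithelial line had 2685 genes higher and 4722 lower as deposited, and 3751 and 3431 after centring. Tumours against the fibroblastic line had 3888 higher and 4764 lower as deposited, and 5095 and 3821 after centring. The member calls in these 3 comparisons held after centring.

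On the epithelial co-culture array 2 members were called against the epithelial line (Il6 higher, Il24 lower), where 7.24% of all genes were called, 4.87% higher and 2.37% lower. On the fibroblastic co-culture array 5 were called against the fibroblastic line, all higher (Il6, Il33, Il24, Il1a and Il1rn), where 8.41% of all genes were called and 4.78% were called higher. Il1a was above the fibroblastic line there by 6.51 ± 0.53 SE (limma adjusted p = 0.000328) and Il1rn by 2.52 ± 0.34 SE (limma adjusted p = 0.00372). Il1b differed by 0.01 and Il18 by -0.50, and neither was called (limma adjusted p = 0.993 and 0.588). Without fibroblastic arrays 1 and 3, the Il18 difference was -1.0 and was called (adjusted p = 0.0343).

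Against the epithelial line, the mean of the 2 co-culture arrays had 2 members called, Il6 and Il24, where 15.3% of all genes were called, 7.97% higher and 7.36% lower. Il24 was lower there by -1.68 ± 0.40 SE (limma adjusted p = 0.0279), a call that ended when only the compared groups were fitted (adjusted p = 0.0671) and without epithelial array 2 (0.0578). Set against the fibroblastic line, that mean had 5 called, all higher, where 17.3% of all genes were called and 8.47% were called higher. Il33 was 6.93, Il1a 6.88, Il24 4.75 and Il1rn 2.46 above it on the log2 scale. These 4 genes lay on both co-culture arrays within the span of the 2 lines grown alone, whereas Il6 lay above that span on both.

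**Figure D3:**
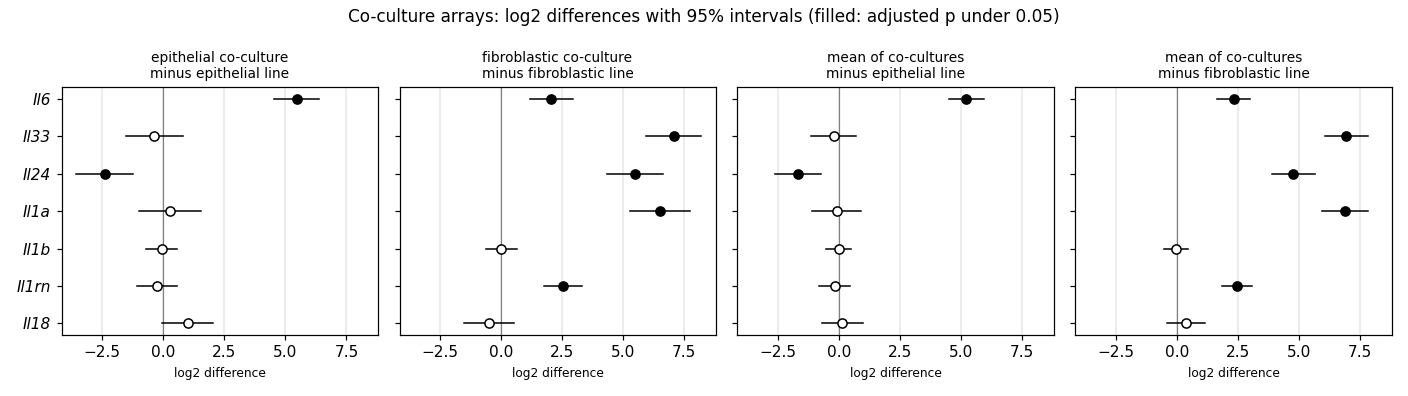
Log2 differences of the 7 members (vertical axis, 1 row per gene) with 95% intervals, for each co-culture array against the line it is labelled with and for the mean of both arrays against each line. Filled points had an adjusted p under 0.05. Il6 was the only member with filled points to the right of 0 in all 4 panels.

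The response on the epithelial co-culture array minus the response on the fibroblastic co-culture array was called for 5 members (1 positive, 4 negative), where 8.43% of all genes were called, 4.66% positive and 3.76% negative. It was 3.41 for Il6 (limma adjusted p = 0.00720), -7.43 for Il33 (0.000453), -7.88 for Il24 (0.000367), -6.25 for Il1a (0.00172) and -2.78 for Il1rn (0.0108). The markers moved in the same contrast, with a median of -7.84 for the epithelial markers (6 of 8 called negative) and 6.10 for the fibroblastic markers (7 of 10 called positive), and their part was not tested. Without fibroblastic arrays 1 and 3, Il18 was also called, at 2.0 (adjusted p = 0.00735). The levels of these members on the 2 co-culture arrays, given above, were close to each other beside the distance between the lines alone. That distance was -2.89 for Il6, 7.16 for Il33, 6.44 for Il24, 6.99 for Il1a and 2.65 for Il1rn (epithelial minus fibroblastic). With both arrays holding markers of both lines, a response of 1 cell type cannot be told apart from the mixing of cells.

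Receptors for these ligands were spread over the groups differently. Il1rl1, the receptor for interleukin-33 (ST2), had 7.34, 7.61, 8.29 and 7.40 in tumours 1 to 4, 6.70 on the epithelial and 9.38 on the fibroblastic co-culture array, 4.95, 4.18 and 4.65 in the epithelial line, and 11.90, 6.24, 11.77 and 7.10 in the fibroblastic line. Fibroblastic arrays 1 and 3 were high and arrays 2 and 4 lower, and tumours lay between these pairs with arrays 2 and 4 below them. The epithelial line was below the fibroblastic line by -4.66 ± 1.42 SE (limma adjusted p = 0.0340), the opposite order to Il33, but 6 of 17 alternatives ended this call, with adjusted p up to 0.0965. Tumours were not called against the epithelial line (3.07 ± 1.24 SE, limma adjusted p = 0.0593) or the fibroblastic line (-1.59 ± 1.15 SE, limma adjusted p = 0.251). The first was called in 9 of 22 alternatives, among them the fit of only the compared groups (adjusted p = 0.000189). The second was called at -2.60 without fibroblastic array 2 (adjusted p = 0.0458) and at -4.175 without arrays 2 and 4 (9.68e-06). It turned to 0.99 without arrays 1 and 3 (limma adjusted p = 0.0344). With the mean of the Il1rl1 probe sets, tumours were 2.03 above the epithelial line and differed by -0.63 from the fibroblastic line. Neither was called (limma adjusted p = 0.0624 and 0.501).

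Il1r2, a decoy receptor that binds interleukin-1 without signalling, had 7.67, 7.68, 6.66 and 7.80 in tumours, 4.72 and 4.34 on the epithelial and fibroblastic co-culture arrays, 3.79, 4.29 and 4.36 in the epithelial line, and 3.68, 4.14, 3.96 and 3.96 in the fibroblastic line. All tumours were above all cultures, by 3.31 ± 0.27 SE over the epithelial and 3.52 ± 0.25 SE over the fibroblastic line (limma adjusted p = 7.10e-06 and 1.01e-06). The signalling receptor Il1r1 ran between 7.82 and 9.48 in tumours, had 8.95 and 9.48 on those co-culture arrays, and ran between 8.56 and 9.20 in the epithelial line and 9.37 and 10.29 in the fibroblastic line. It was lower in tumours than in the fibroblastic line by -1.07 ± 0.38 SE (limma adjusted p = 0.0312), and this turned to 0.19 with the mean of its probe sets. Of 22 alternatives, 8 ended this Il1r1 call besides the 1 that turned its sign, with limma adjusted p up to 0.566. Its partner Il1rap ran between 7.11 and 8.94 in tumours and was not called in any of these comparisons.

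Il6r, the binding subunit for interleukin-6, had 7.53, 6.75, 6.79 and 8.59 in tumours, 6.44 and 6.91 on the epithelial and fibroblastic co-culture arrays, 5.67, 6.29 and 5.99 in the epithelial line, and 5.52, 7.21, 5.34 and 6.66 in the fibroblastic line. It was higher in tumours than in the epithelial line by 1.43 ± 0.52 SE and than in the fibroblastic line by 1.24 ± 0.49 SE (limma adjusted p = 0.0406 and 0.0465). Tumours 1 and 4 had the highest Il6r and the highest hepatocyte sums (16.5 each, against 9.08 in tumour 2 and 15.3 in tumour 3); 7 and 11 of 22 alternatives ended the 2 calls, with adjusted p up to 0.269 and 0.408, and the part of hepatocytes was not tested. The signalling subunit Il6st had 9.29 to 10.49 in tumours, 9.71 and 10.11 on those co-culture arrays, 9.25 to 10.004 on epithelial arrays and 10.66 to 11.31 on fibroblastic arrays. It was lower in tumours than in the fibroblastic line by -1.16 ± 0.28 SE (limma adjusted p = 0.00494), a call that 1 of 22 alternatives ended (adjusted p = 0.0547). Of the interleukin-24 receptor only Il20rb was measured, with 5.29 to 5.66 in tumours, 4.95 and 5.17 on those arrays, 4.95 to 5.16 on epithelial arrays and 4.52 to 4.77 on fibroblastic arrays. All these values were near or under the lower quartile of all genes. Tumours were above the epithelial line by 0.37 and the fibroblastic line by 0.80 (limma adjusted p = 0.0283 and 0.000168). Of 21 alternatives, 5 ended the first call and 1 turned its sign, and 0 ended the second.

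Over 11 measured receptors of 16 listed, tumours had 6 higher and 0 lower than the epithelial line (median difference 1.39, against -0.17 over all genes), where 18.9% of all genes were higher and 33.2% lower. Tumours had 4 higher and 3 lower than the fibroblastic line (median 0.06), where 27.3% of all genes were higher and 33.5% lower. The epithelial line had 1 higher and 5 lower than the fibroblastic line (median -0.83), where 20.9% of all genes were higher and 16.6% lower. Besides Il1rl1, the lower ones included Il11ra1, the interleukin-11 receptor, at -4.33 ± 0.26 SE (limma adjusted p = 7.28e-06). In co-culture, Il11ra1 was the only receptor called on the epithelial co-culture array, and 0 were called on the fibroblastic one by limma. Of all genes, 7.24% and 8.41% were called on these arrays.

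Processing genes were measured for 8 of 12 listed. Casp1, the protease that matures interleukin-1 beta and interleukin-18, had 10.05, 11.13, 10.17 and 9.93 in tumours, 8.40 and 6.47 on the epithelial and fibroblastic co-culture arrays, 5.86, 9.31 and 8.47 in the epithelial line, and 4.83, 3.98, 5.03 and 4.68 in the fibroblastic line. Tumour 2 was highest for Casp1, as it was for Il18, and epithelial array 1 was well under the other 2 epithelial arrays. Tumours were above the epithelial line by 2.44 ± 0.67 SE and above the fibroblastic line by 5.69 ± 0.62 SE (limma adjusted p = 0.0114 and 2.31e-05). The first difference was 1.43 without epithelial array 1 and was still called (adjusted p = 0.0178). The epithelial line was above the fibroblastic line by 3.25 ± 0.73 SE (limma adjusted p = 0.00941), and 1 of 17 alternatives ended that call (adjusted p = 0.0506).

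Pycard, the inflammasome adaptor, was higher in tumours than in the epithelial line by 1.55 ± 0.20 SE (limma adjusted p = 0.000145) and lower in the epithelial than in the fibroblastic line, by -1.88 ± 0.20 SE (limma adjusted p = 0.000213). Capn1, a calpain (calpains cleave the interleukin-1 alpha precursor), was lower in tumours than in the epithelial line by -1.38 ± 0.15 SE (limma adjusted p = 6.66e-05). In all, tumours had 2 processing genes higher and 3 lower than the epithelial line, and 3 higher and 1 lower than the fibroblastic line. The epithelial line had 3 higher and 1 lower than the fibroblastic line. In these 3 comparisons, in that order, 18.9%, 27.3% and 20.9% of all genes were higher, and 33.2%, 33.5% and 16.6% lower.

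Inhibitors of these pathways were measured for 8 of 8 listed. Socs3, a target of STAT3 that restrains interleukin-6 signalling, had 7.38, 7.49, 7.02 and 7.52 in tumours, 6.93 on each co-culture array, 5.61, 5.94 and 6.01 in the epithelial line, and 5.47, 5.43, 5.53 and 5.43 in the fibroblastic line. The tumours and both co-culture arrays were above every array of either line. Tumours exceeded the epithelial line by 1.5 ± 0.15 SE and the fibroblastic line by 1.89 ± 0.14 SE (limma adjusted p = 2.95e-05 and 1.21e-06). The mean of the co-culture arrays exceeded them by 1.07 ± 0.17 SE and 1.46 ± 0.16 SE (limma adjusted p = 0.00559 and 0.000763).

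Irak3, which blocks signalling from interleukin-1 family receptors, had 6.63, 6.40, 5.86 and 6.68 in tumours, 9.33 on the epithelial and 9.78 on the fibroblastic co-culture array, 6.32, 6.03 and 6.06 in the epithelial line, and 7.64, 8.74, 7.73 and 8.19 in the fibroblastic line. Like Il6, it was above both lines on both co-culture arrays and under the fibroblastic line in tumours. The mean of the co-culture arrays was above the epithelial line by 3.42 ± 0.33 SE and above the fibroblastic line by 1.48 ± 0.31 SE (limma adjusted p = 0.000334 and 0.0140). Tumours were below the fibroblastic line by -1.68 ± 0.26 SE (limma adjusted p = 0.000247).

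Il18bp, the soluble inhibitor of interleukin-18, was higher in tumours than in the epithelial line by 1.80 ± 0.20 SE and than in the fibroblastic line by 1.73 ± 0.18 SE (limma adjusted p = 5.56e-05 and 1.78e-05). Sigirr, an inhibitory receptor of the interleukin-1 family, had 7.83 to 8.20 in tumours, 6.96 and 6.25 on the epithelial and fibroblastic co-culture arrays, 8.08 to 8.31 on epithelial arrays and 4.22 to 5.38 on fibroblastic arrays. Over the list, tumours had 2 higher and 2 lower than the epithelial line, and 4 higher and 2 lower than the fibroblastic line. The epithelial line had 1 higher and 1 lower than the fibroblastic line. In these 3 comparisons, in that order, 18.9%, 27.3% and 20.9% of all genes were higher, and 33.2%, 33.5% and 16.6% lower. Each co-culture array had 2 higher and 0 lower than its line, namely Irak3 and Socs3. Of all genes, 4.87% were higher on the epithelial and 4.78% on the fibroblastic co-culture array. The Irak3 call on the fibroblastic co-culture array ended in 7 of 17 alternatives (adjusted p up to 0.0966), and the Socs3 call on the epithelial one in 3 of 17 (up to 0.0984).

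**Figure D4:**
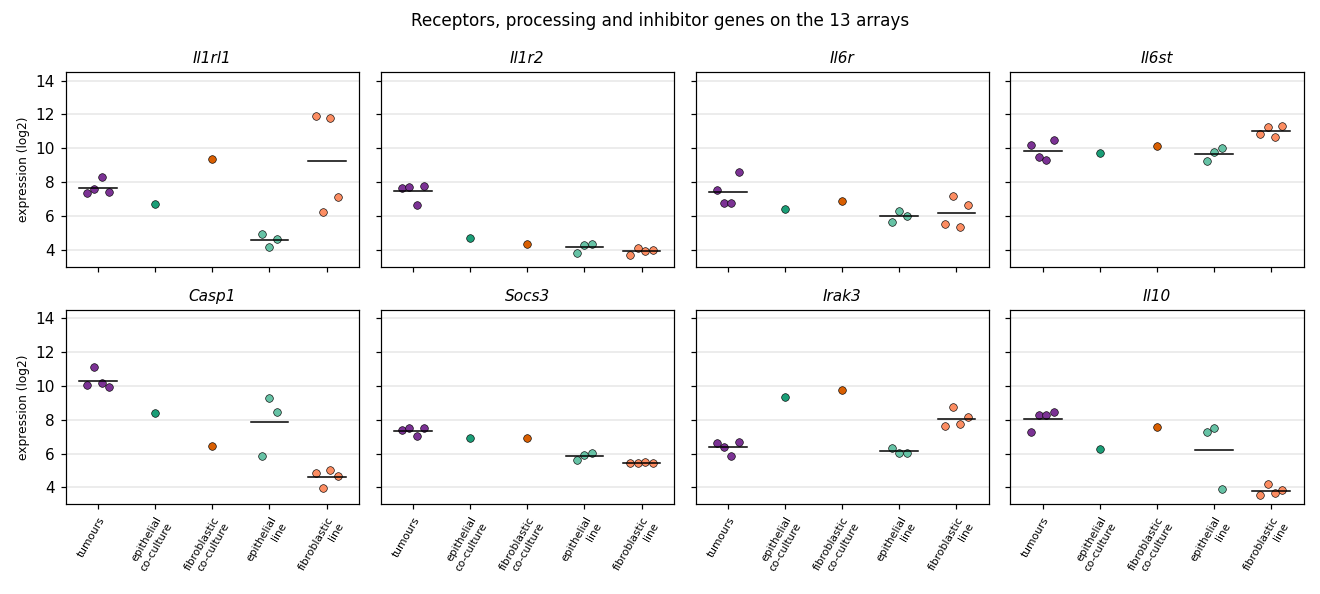
Expression (log2, vertical axis) of 8 receptor, processing, inhibitor and related cytokine genes on each of the 13 arrays, with 1 point per array and a line at the mean of each replicated group. Il1rl1 split the fibroblastic arrays into 2 high and 2 lower points, Il1r2 was high in the 4 tumours, and Irak3 was highest on the 2 co-culture arrays.

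Other cytokines of the same families were measured for 10 of 17 listed. Tumours had 1 higher (Osm, an interleukin-6 relative, by 0.95 ± 0.15 SE, limma adjusted p = 0.000555) and 3 lower than the epithelial line. Relative to the fibroblastic line, tumours had 5 higher and 2 lower, led by Il10, an anti-inflammatory cytokine, at 4.26 ± 0.66 SE (limma adjusted p = 0.000285). Il10 had 7.27, 8.30, 8.25 and 8.44 in tumours, 6.25 and 7.60 on the epithelial and fibroblastic co-culture arrays, 7.27, 7.51 and 3.92 in the epithelial line, and 3.54, 4.18, 3.66 and 3.83 in the fibroblastic line. Epithelial array 3 was near the fibroblastic arrays for this gene while the other 2 epithelial arrays were near the tumours. The epithelial line had 3 higher and 0 lower than the fibroblastic line. In these 3 comparisons, in that order, 18.9%, 27.3% and 20.9% of all genes were higher, and 33.2%, 33.5% and 16.6% lower. Each co-culture array had 1 lower than its line, and the fibroblastic one also had 1 higher. Of all genes, 7.24% were called on the epithelial and 8.41% on the fibroblastic co-culture array.

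Signal transducers were measured for 15 of 16 listed. Tumours had 2 higher and 7 lower than the epithelial line (median -0.28, against -0.17 over all genes), and 1 higher and 6 lower than the fibroblastic line (median -0.20, against -0.07), where 33.2% and 33.5% of all genes were lower. In the same 2 comparisons 18.9% and 27.3% of all genes were higher. The epithelial line had 2 higher and 3 lower than the fibroblastic line, where 20.9% of all genes were higher and 16.6% lower. Jak2, a kinase that gp130 receptors use, had 8.29 and 9.09 on the epithelial and fibroblastic co-culture arrays, 7.55 to 7.87 on epithelial arrays and 7.08 to 7.44 on fibroblastic arrays. The mean of the co-culture arrays was above the epithelial line by 0.94 ± 0.18 SE and above the fibroblastic line by 1.41 ± 0.17 SE for Jak2 (limma adjusted p = 0.0135 and 0.00127). Over the 15 transducers, that mean had 1 higher and 1 lower than the epithelial line, and 2 higher and 3 lower than the fibroblastic line. Of all genes, 15.3% and 17.3% were called in these 2 comparisons. Chuk went the other way from Jak2, at -0.79 and -0.60.

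Genes that respond to NF-kappaB or STAT3 were measured for 16 of 17 listed. Tumours had 4 higher and 5 lower than the epithelial line (median -0.51), and 8 higher and 1 lower than the fibroblastic line (median 0.79). Of all genes, 18.9% were higher and 33.2% lower in the first comparison, and 27.3% and 33.5% in the second. The epithelial line had 7 higher and 0 lower than the fibroblastic line (median 0.57, against 0.11 over all genes). There 20.9% of all genes were higher and 16.6% lower. The fibroblastic co-culture array had 5 higher and 0 lower than the fibroblastic line, where 4.78% of all genes were higher. The epithelial co-culture array had 1 higher (Lcn2) and 0 lower than the epithelial line, where 4.87% of all genes were higher. With markers of both lines on both arrays, a response of 1 cell type cannot be told apart from the mixing of cells. Bcl3, an NF-kappaB cofactor, had 8.75, 9.16, 9.18 and 8.75 in tumours, 9.28 and 9.17 on the epithelial and fibroblastic co-culture arrays, 10.02, 9.98 and 9.30 in the epithelial line, and 5.33, 5.61, 4.53 and 4.63 in the fibroblastic line. The epithelial line exceeded the fibroblastic line for Bcl3 by 4.74 ± 0.31 SE (limma adjusted p = 1.30e-05). Tnfaip3, the NF-kappaB inhibitor A20, was lower in tumours than in the epithelial line by -2.64 ± 0.51 SE and higher than in the fibroblastic line by 2.15 ± 0.48 SE (limma adjusted p = 0.00179 and 0.00281).

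Among the 4848 genes whose values spanned at least 2 log2 units, those most like each member were found by Pearson correlation over the 13 arrays. The arrays fall into groups, so these correlations describe the pattern over groups and carry no test. Il6 was most like Itga5 (0.962), Kif21a (0.950) and Igfbp6 (0.944). Il33 was most like Krt18 (0.995), S100a14 (0.994) and Krt8 (0.993), of which Krt18 and Krt8 are keratins of simple epithelia. Il24 was most like Fcmr (0.988), Bik (0.981) and Slco4a1 (0.980), and Il1a like Pard6b, Myo5c and Hdac11 (0.981 each). Il1b was most like Igsf6 (0.995), Prkcb (0.993) and Adgre1 (0.993), the last being a macrophage marker. Il18 was most like C5ar1 (0.979), Slamf9 (0.978) and Ptpro (0.978). Il1rn was most like H2-Q7-ps1 (0.990), LOC100909928 (0.977) and Ly75 (0.976).

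The members themselves formed 3 patterns by the same measure over 13 arrays. Il1b and Il18 correlated at 0.969. Il33, Il24 and Il1a correlated with each other at 0.877 to 0.937, and Il1rn correlated with Il33 at 0.932 and with Il1b at 0.668. Il6 correlated with each other member at -0.39 to -0.20.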

How the data were processed

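RNA of 13 samples (4 tumours, 2 co-culture arrays, 3 epithelial and 4 fibroblastic arrays) was hybridised to an Affymetrix rat array, and the deposited values are log2 expression per probe set, made by the authors with RMA per the submitters' processing notes. The sources used here do not give the RMA version or which arrays were normalized together. Array medians were 6.15 to 6.25. No depth exists for arrays, and their number limits the precision.

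Of 31099 probe sets, 20826 had 1 gene, 436 several, 9780 none and 57 were controls. Symbols were updated through Entrez IDs (20758) or accessions (2), and 66 were kept. One probe set, that with the highest mean over all arrays, stood for each of 14217 genes.

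Groups were compared with limma 3.58.1 in R 4.3.3 (lmFit, eBayes, two-sided, Benjamini-Hochberg over all genes, threshold 0.05). Tumours and both lines shared 1 fit, and the lines and co-culture arrays another. The script was tested on simulated data. Summaries and figures were made in Python 3.11.15 with pandas 2.3.3 and matplotlib 3.10.9.

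The 7 members and the gene lists were chosen with earlier results of these data known. The text names the members, their receptors and Casp1. From each list it names a part of the called genes with the 3 largest positive or 3 largest negative differences in a comparison. This part, and further list genes, were chosen after their values were seen. For each member it names the 3 genes of highest correlation. Promoter motifs were searched as exact letters, and the NF-kappaB core of 9 letters replaced a form with 1 more C at its end, which the Il6 window also matched, after that result was seen. Tumour Cd68, Ptprc, Alb and summed marker lists were used to describe cell content.

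Alternatives were other fits, further quantile normalization, centring, a filter on the lowest 33.3% of genes, the mean of probe sets, trend and robust moderation, each array left out, and the replicate number as a random block. Arrays of the same number correlated at -0.15 to 0.14 in their deviations from group means, so the numbers were not taken as pairs. Leaving out fibroblastic arrays 2 and 4 or 1 and 3, or tumours 1 and 4, and the mean of the co-culture arrays were chosen after seeing the data. Other marker lists are given in the closing section.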

Additional observations from a re-analysis of the deposited data

Results flagged for a closer look

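The interaction contrast of the limma fit sets the 2 labelled co-culture arrays, each against its own line, beside each other. It was called for 5 members and 7 genes of the lists, where 8.43% of all genes were called. By list, 1 of 10 family cytokines, 1 of 11 receptors, 1 of 8 inhibitors, 0 of 15 signal transducers and 1 of 16 response genes were called. Of 8 processing genes, 1 was positive and 2 were negative. The share called among the listed genes was thus close to that of all genes. Positive values were higher on the epithelial side. The difference was 3.41 for Il6, -7.43 for Il33, -7.88 for Il24, -6.25 for Il1a and -2.78 for Il1rn. Among the listed genes it was 3.69 for Il11ra1, 1.97 for Pycard, -1.83 for Il36rn, -2.60 for Sigirr, -1.65 for Casp8, -1.29 for Capn1 and -4.63 for Bcl3. The epithelial markers moved by a median of -7.84 and the fibroblastic markers by 6.10 in the same contrast. Both co-culture arrays held markers of both lines and correlated at 0.983 over genes. Where the 2 co-culture arrays are alike, this contrast returns the difference between the lines with its sign reversed. It therefore cannot tell a response of 1 cell type from the mixing of cells.

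In groups of 4 arrays, 5 of 110 examined had 1 array far from the others, and chance gives about 1 in 20. Chuk, a kinase of the NF-kappaB pathway, was 9.83 in tumour 4, under the other tumours. Il10 was 7.27 in tumour 1, again the lowest tumour. Il1r2 was 6.66 in tumour 3, the tumour that also had the least Il1b (8.29). Il36rn, an antagonist in the interleukin-1 family, was 4.64 on fibroblastic array 1. Lifr, a receptor of the interleukin-6 family, was 4.42 on fibroblastic array 2.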

How the results depend on the processing

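Of 1015 recomputed values for the members, 979 kept their direction and their side of the threshold, 5 lost a call, 6 gained one and 25 changed sign. All sign changes of members were in differences not called as deposited. With the replicate block the same numbers of members were called as without it in every comparison (6 for tumours against the epithelial line, with 7478 genes). The cause of the changes below was not tested. Genes called for tumours against the epithelial line numbered 4549 without tumours 1 and 4, against 7407. For the epithelial co-culture against its line they numbered 1743 with all 13 arrays in 1 fit, against 1029. Without fibroblastic arrays 1 and 3, the fibroblastic co-culture had 1839 against 1195, and the difference in response 2075 against 1198. Members called in the epithelial co-culture, and in the co-culture mean against the epithelial line, numbered 1 when only the compared groups were fitted and 1 to 2 with each array left out.

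For tumours against the epithelial line, Il33 was 0.15 after centring, 0.12 without tumours 1 and 4 and -0.18 to 0.043 with each array left out. Il1r1 was 0.13 after quantile normalization, 0.33 with the mean of probe sets and -0.51 to 0.046 with each array left out. Il20rb was -0.12 after quantile normalization, and Il6st was -0.29 without tumours 1 and 4 and -0.021 to 0.38 with each array left out. For tumours against the fibroblastic line, Il1r1 was 0.19 with the mean of probe sets, Il1rap -0.37 without fibroblastic arrays 2 and 4 and -0.28 without tumours 1 and 4, and Il1rl1 0.99 (adjusted p = 0.0344) without fibroblastic arrays 1 and 3.

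Between the lines, Il1b was 0.16 and Il6r 0.56 without fibroblastic arrays 2 and 4, and Il18 was -0.26 and Il1rap 0.0052 without arrays 1 and 3. With each array left out, Il1b ran between -0.18 and 0.043 and Il6r between -0.48 and 0.15. For the epithelial co-culture, Il1a ran between -0.13 and 0.73 with each array left out. For the fibroblastic co-culture, Il1b was -0.15 after quantile normalization, -0.031 after centring, -0.19 without fibroblastic arrays 1 and 3 and -0.13 to 0.088 with each array left out. Its difference in response was 0.12 without fibroblastic arrays 1 and 3 and -0.16 to 0.061 with each left out.

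For the co-culture mean against the epithelial line, Il18 was -0.10 after quantile normalization and Il1a 0.11 with the mean of probe sets. With each array left out Il1a ran between -0.50 and 0.36, Il1b between -0.068 and 0.042 and Il1rn between -0.43 and 0.050. Against the fibroblastic line Il1b was 0.15 without fibroblastic arrays 2 and 4 and -0.19 to 0.030 with each left out, and Il18 was -0.13 without arrays 1 and 3. Low values near the lower quartile of an array, and 1 array per co-culture, limit what these comparisons can resolve.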

Other observations

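Further marker lists, which were chosen with results known, gave these values. Neutrophil markers (4 measured) had summed levels of 10.1 to 11.2 in tumours, 13.5 on the epithelial and 11.5 on the fibroblastic co-culture array, 7.84 to 10.6 on epithelial arrays and 6.31 to 6.49 on fibroblastic arrays. S100a9, which led this sum, had 13.42 and 11.50 on the epithelial and fibroblastic co-culture arrays, 7.36 to 10.53 on epithelial arrays and 4.15 to 4.67 on fibroblastic arrays, while Ptprc on the co-culture arrays was at the level of the lines. Lymphocyte markers were higher in tumours than in each line for 9 of 10, and hepatocyte markers for 7 of 7. Endothelial markers were higher for 5 of 6 against the epithelial and 4 of 6 against the fibroblastic line, and mast cell markers for 3 of 5 and 4 of 5. Of all genes, 18.9% were higher in tumours than in the epithelial line and 27.3% than in the fibroblastic line. On both co-culture arrays 0 lymphocyte, endothelial, hepatocyte or mast cell markers were called against the line of the label by limma. Neutrophil markers were called higher for 2 of 4 on the epithelial and 1 of 4 on the fibroblastic co-culture array. Macrophage markers were called higher for 0 and 1 of 12. Of all genes, 4.87% and 4.78% were higher there.

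Tumour Il6 stood far under the co-culture level, at 5.21 to 6.55 in the tumours beside 9.57 and 9.05 on the epithelial and fibroblastic co-culture arrays, and this difference was not tested.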
